A study of Rattus norvegicus with 23 samples.

Results

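The 6 genes described here are Mki67 (ENSRNOG00000028137), Cdk1 (ENSRNOG00000000632), Ccnb1 (ENSRNOG00000058539), Ccna2 (ENSRNOG00000015423), Pcna (ENSRNOG00000021264) and Ccnd1 (ENSRNOG00000020918). They are markers and drivers of cell division, and they were followed through healthy and surgically repaired rat nerve. They were picked by these identifiers out of the 32545 in the count table, of which 23446 had a count, and all 6 were present and passed the filter on low counts. The series asks what the muscle fibres of a muscle-in-vein graft, in which skeletal muscle is packed into a segment of vein, do early in nerve regeneration. All animals were adult female wild-type rats. The repaired libraries came from median nerves cut to leave an 8 mm gap and collected on day 3 or day 7 after repair. One repaired series is labelled EV, a code the labels do not spell out, with a treatment label that names only repair of the cut (n = 3 at each day). The other is labelled MIV, and its treatment label adds MIV to that repair (n = 3 at each day). The series design describes a 10 mm muscle-in-vein graft. Untreated healthy median nerve (n = 5), epigastric vein (n = 3) and adductor muscle (n = 3) were the references, the last 2 being the kinds of tissue a muscle-in-vein graft is made of. The labels do not state that the libraries of a group are from different animals, and all p-values are therefore over libraries, whose spread may be technical. Each library held RNA from a whole piece of tissue, so more dividing cells and more of these transcripts per cell cannot be told apart.

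A cell that divides passes through a gap phase, DNA synthesis, a further gap phase and mitosis, and cyclins switch on the kinases that drive each step. Ccnd1 encodes cyclin D1, which is induced by growth signals and acts early, before DNA synthesis. Pcna encodes the sliding clamp that holds DNA polymerase on its template, and it also serves DNA repair. Ccna2 encodes cyclin A2, which acts during DNA synthesis and on to mitosis. Ccnb1 encodes cyclin B1, which activates the kinase encoded by Cdk1 to start mitosis. Mki67 encodes Ki-67, a protein that coats mitotic chromosomes and is the usual stain for cycling cells. In an injured nerve, Schwann cells, fibroblasts, endothelial cells and immune cells are all known to divide.

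Genes that peak in late cell cycle often share a short promoter element called the cell cycle genes homology region (CHR) near CCAAT boxes. The element is known in genes of the kind of Mki67, Cdk1 and Ccnb1, and Pcna is shown beside them. These promoters were chosen with the changes of the genes already known, and no link between matches and changes was tested. RefSeq promoter windows on build GRCr8 were matched by symbol for 4 of the 6 genes, Mki67, Cdk1, Ccnb1 and Pcna. Ccna2 and Ccnd1 had no entry and could not be searched. TTTGAA and TTTAAA, both known forms of the CHR, and CCAAT were searched on both strands in the 250 bases before each start site. Capitals mark the matches, read 5′ to 3′ on the strand of the gene, and ATTGG is CCAAT on the opposite strand. In the Mki67 stretch the second TTTGAA and ATTGG share a base.
Mki67, chr1:199952683-199952712, minus strand, 119 to 90 bases before the start: aaTTTGAAccgccgttttcgTTTGAATTGG
Cdk1, chr20:19265208-19265237, plus strand, 85 to 56 bases before the start: tctgATTGGctccTTTGAAcgtctacgtgc
Cdk1, chr20:19265259-19265288, plus strand, 34 to 5 bases before the start: gagctttaccgcggtgagTTTGAAactgct
Ccnb1, chr2:33655226-33655405, minus strand, 180 bases up to the start: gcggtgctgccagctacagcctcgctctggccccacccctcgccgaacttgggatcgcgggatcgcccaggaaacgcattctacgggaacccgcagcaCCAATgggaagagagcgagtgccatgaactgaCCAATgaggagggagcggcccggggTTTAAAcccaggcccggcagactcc
Pcna, chr3:139955821-139956000, minus strand, 180 bases up to the start: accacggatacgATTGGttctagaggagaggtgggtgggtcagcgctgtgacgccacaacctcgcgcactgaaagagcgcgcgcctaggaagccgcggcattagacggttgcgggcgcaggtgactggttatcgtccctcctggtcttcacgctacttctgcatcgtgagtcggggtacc
Mki67 held 2 TTTGAA and 4 CCAAT matches, Cdk1 held 2 TTTGAA and 3 CCAAT matches, and Ccnb1 held 1 TTTAAA and 2 CCAAT matches. In Ccnb1 the TTTAAA lay 25 bases before the start, downstream of CCAAT at 50 and 82 bases. Pcna held 1 CCAAT match and neither form of the CHR in this window. Of all 33469 promoter windows of the same length, 25.43% held TTTGAA or TTTAAA, 34.02% held CCAAT and 9.04% held both. A match shows only that the letters are there.

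Library totals ranged from 12504035 to 17314324 counts. Levels are given as CPM, a gene's count scaled to a common library size, after TMM scaling, which corrects for differences in library make-up. They compare libraries for the same gene, not genes with each other, because transcript length was not taken into account. Overlap between groups is a description of the 6 genes, and the share of all genes without overlap was not computed. Muscle-enriched genes (2842 genes at least 1 log2 unit above both other healthy tissues) took 14.01% to 17.1% of the counts in healthy nerve and 79.9% to 80.6% in healthy muscle. They took 16.1% to 19.9% in the EV libraries, 18.3% to 21.7% in MIV at day 3, and 24.8%, 17.9% and 37.4% in MIV day 7 replicates 1, 2 and 3. Identifiers matched no symbols beyond the 6 genes, so marker lists of other cell types were not analysed here.

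Mki67, Ccna2, Cdk1 and Ccnb1 were scarce in healthy tissue and rose 29.1-fold to 101-fold in day 3 nerve relative to healthy nerve. These 4 genes had lost most of that rise by day 7 while staying above every healthy library. Pcna rose 2.12-fold in EV and 1.95-fold in MIV at day 3, Ccnd1 rose 1.70-fold and 1.62-fold, and both were back in or below the range of healthy nerve in most day 7 libraries. The days came in the same order in EV and MIV. No gene of the 6 passed edgeR's test between the series at either day, and neither did any other gene tested (0.00% called). With DESeq2, another test, Ccnd1 alone of the 6 was called lower in MIV at day 7 (DESeq2 adjusted p = 0.0304).

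**Figure D1:**
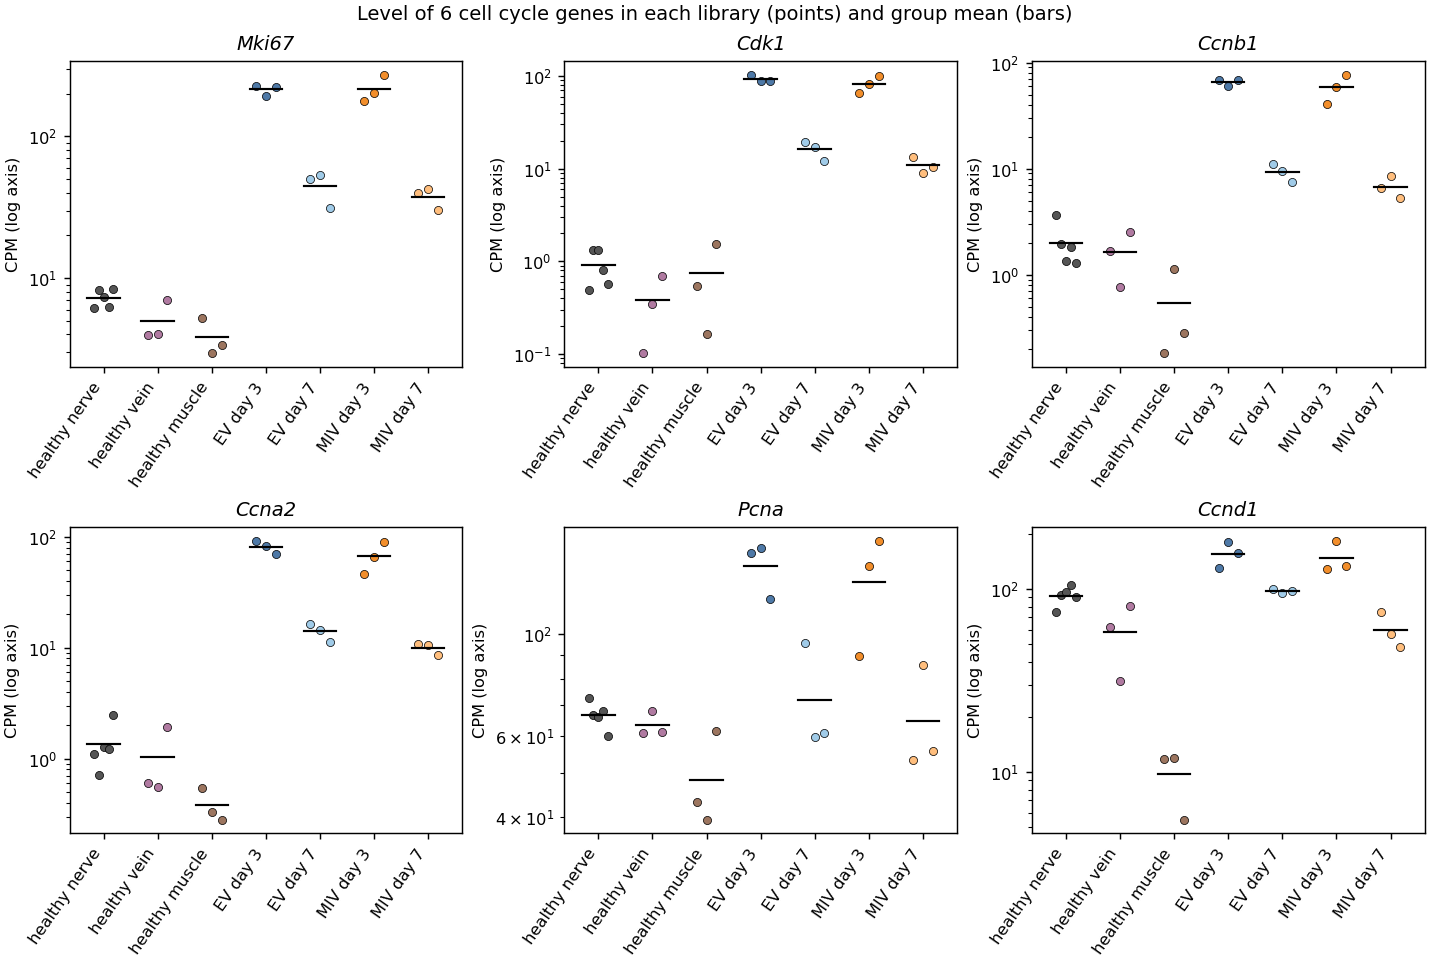
Each point is a library, each horizontal bar a group mean, and the vertical axes give CPM on a log scale with a different range for each gene. For Mki67, Cdk1, Ccnb1 and Ccna2 all 12 repaired libraries lie above all 11 healthy libraries, whereas 4 of 6 day 7 libraries for Pcna and all 6 for Ccnd1 lie within the range of the healthy ones.

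Mki67 stood at 6.15, 6.27, 7.31, 8.28 and 8.38 CPM in the 5 healthy nerves, 3.995, 4.03 and 6.98 CPM in the veins and 2.94, 3.38 and 5.24 CPM in the muscles. At day 3 it reached 194, 224 and 227 CPM in EV and 178, 204 and 271 CPM in MIV. By day 7 the values were 31.2, 50.1 and 53.6 CPM in EV and 30.1, 40.1 and 42.3 CPM in MIV. The day 3 libraries were all above the day 7 libraries, and the lowest day 7 library was above the highest healthy one, at 8.38 CPM.

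Cdk1, the kinase that starts mitosis, was close to absent from healthy tissue, with 1 to 24 counts per library. Its levels were 0.492, 0.568, 0.799, 1.33 and 1.34 CPM in nerve, 0.101, 0.347 and 0.692 CPM in vein and 0.163, 0.542 and 1.55 CPM in muscle. They rose to 87.5, 88.3 and 103 CPM in EV and 65.6, 81.95 and 101 CPM in MIV at day 3, from 1303 to 2110 counts per library. At day 7 EV libraries held 12.05, 17.2 and 19.3 CPM and MIV libraries 8.96, 10.5 and 13.5 CPM. The days did not overlap, and EV and MIV overlapped within each day.

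Ccnb1, which encodes the cyclin partner of that kinase, followed the same order. It stood at 1.28, 1.34, 1.84, 1.93 and 3.63 CPM in nerve, 0.764, 1.67 and 2.50 CPM in vein and 0.181, 0.282 and 1.14 CPM in muscle. Day 3 libraries held 60.3, 67.9 and 68.05 CPM in EV and 41.1, 59.3 and 76.4 CPM in MIV. Day 7 libraries held 7.50, 9.49 and 10.97 CPM in EV and 5.28, 6.54 and 8.49 CPM in MIV. The lowest day 7 library thus lay above the highest healthy library, a nerve at 3.63 CPM, by less than for Mki67, Cdk1 and Ccna2.

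Ccna2, the cyclin of DNA synthesis, ran at 0.718, 1.11, 1.23, 1.26 and 2.49 CPM in nerve, 0.556, 0.607 and 1.92 CPM in vein and 0.282, 0.327 and 0.542 CPM in muscle. On day 3 it ran at 69.6, 82.6 and 91.5 CPM in EV and 45.9, 65.99 and 90.4 CPM in MIV. On day 7 it ran at 11.2, 14.6 and 16.3 CPM in EV and 8.66, 10.6 and 10.8 CPM in MIV. Here every EV day 7 library lay above every MIV day 7 library, by a small margin.

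Pcna, the polymerase clamp, was well expressed in healthy tissue, at 59.999, 65.98, 66.6, 68.1 and 72.5 CPM in nerve, 60.99, 61.3 and 68.2 CPM in vein and 39.5, 43.2 and 61.7 CPM in muscle. It rose to 119, 150.1 and 154 CPM in EV and 89.8, 141 and 159 CPM in MIV at day 3. At day 7 it was at 59.6, 60.9 and 95.6 CPM in EV and 53.2, 55.7 and 85.5 CPM in MIV. Each day 7 group had 1 library above the highest healthy library and 2 within the healthy range, and the highest EV day 7 library was above the lowest MIV day 3 library.

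Ccnd1, which encodes cyclin D1, was also well expressed in healthy nerve, at 74.8, 90.3, 92.9, 96.3 and 105 CPM, and varied in vein, at 31.6, 62.3 and 80.4 CPM. In muscle it was low, at 5.49, 11.8 and 11.9 CPM. At day 3 it reached 131, 156 and 180.3 CPM in EV and 128, 134 and 183 CPM in MIV, all above the highest healthy nerve at 104.6 CPM. At day 7 EV was at 95.3, 97.0 and 100.04 CPM, inside the range of healthy nerve, and MIV at 48.2, 56.98 and 74.6 CPM, all below the lowest healthy nerve at 74.8 CPM.

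Ordered by group mean, the day 3 groups held the first 2 places for all 6 genes, with overlapping EV and MIV ranges. For Mki67, Cdk1, Ccnb1 and Ccna2 the order went on with EV day 7, MIV day 7 and healthy nerve, and the steps from day 3 to day 7 and from day 7 to healthy nerve were free of overlap. EV day 7 and MIV day 7 overlapped for Mki67, Cdk1 and Ccnb1 and did not for Ccna2. Among healthy tissues nerve had the highest mean for all 6 genes. For Pcna every pair of neighbours in the order overlapped. For Ccnd1 the order was EV day 3, MIV day 3, EV day 7, healthy nerve, MIV day 7, vein and muscle, with overlap between the day 3 groups, between EV day 7 and nerve, and between MIV day 7 and vein.

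Repaired nerves were compared with healthy nerve to ask how far the division genes departed from the uninjured tissue (edgeR's quasi-likelihood test over all 23 libraries, Benjamini-Hochberg adjustment over 15954 genes, threshold 0.05). At day 3 all 6 genes were higher in EV and all 6 in MIV, where 30.0% and 30.9% of all genes tested were called higher. At day 7, 4 of 6 were higher in EV, against 24.1% of all genes, and 4 of 6 were higher and 1 lower in MIV, against 29.2% higher and 25.4% lower. The median log2 fold change of the 6 genes was 4.95 in EV and 4.88 in MIV at day 3, and 2.41 and 2.05 at day 7, while the median over all genes tested lay between -0.01 and 0.05. These 4 comparisons share the 5 healthy nerve libraries.

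Cdk1 had the largest change of the 6 at each time. Its log2 fold change was 6.66 ± 0.38 (SE) in EV at day 3, which is 101-fold (edgeR adjusted p = 6.74e-11), and 6.50 ± 0.38 (SE) in MIV, which is 90.6-fold (edgeR adjusted p = 9.06e-11). It was still 17.7-fold and 12.0-fold up at day 7 (edgeR adjusted p = 3.69e-08 and 1.95e-07). Ccna2 rose 60.1-fold in EV and 49.9-fold in MIV at day 3, and stood 10.4-fold and 7.43-fold above healthy nerve at day 7. Ccnb1 rose 32.3-fold and 29.1-fold at day 3 and stood 4.61-fold and 3.35-fold up at day 7. Mki67 rose 29.5-fold and 29.9-fold at day 3, with log2 fold changes of 4.88 ± 0.23 (SE) and 4.90 ± 0.23 (SE), and stood 6.17-fold and 5.15-fold up at day 7. The edgeR adjusted p of these last 3 genes ran from 6.79e-12 to 0.000349.

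Pcna and Ccnd1 changed far less. Pcna rose by 1.08 ± 0.20 (SE) log2 units in EV and 0.96 ± 0.20 (SE) in MIV at day 3 (edgeR adjusted p = 0.000103 and 0.000329). At day 7 its log2 difference from healthy nerve was 0.11 in EV (95% interval -0.31 to 0.53) and -0.04 in MIV (-0.46 to 0.38), the last turning to 0.07 with scaling from genes that are not muscle-enriched. Ccnd1 rose by 0.76 ± 0.24 (SE) log2 units in EV and 0.69 ± 0.24 (SE) in MIV at day 3 (edgeR adjusted p = 0.0106 and 0.0188). Leaving out EV day 3 replicate 2 gave an adjusted p of 0.0579 for the first, and leaving out MIV day 3 replicate 2 gave 0.119 for the second. At day 7 its difference was 0.09 in EV (95% interval -0.43 to 0.60) and -0.61 ± 0.25 (SE) in MIV, where it passed as lower (edgeR adjusted p = 0.0464). That last call was lost when any 1 of 13 of the 23 libraries was left out (adjusted p up to 0.173, without MIV day 7 replicate 3). The others were healthy nerve replicates 2 to 5, healthy vein replicate 1, EV day 3 replicates 2 and 3, all 3 EV day 7 replicates, MIV day 3 replicate 3 and MIV day 7 replicate 2. It was also lost with scaling from genes that are not muscle-enriched (-0.50, edgeR adjusted p = 0.101), a scaling that moved the median of all genes in that comparison from 0.05 to 0.17.

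**Figure D2:**
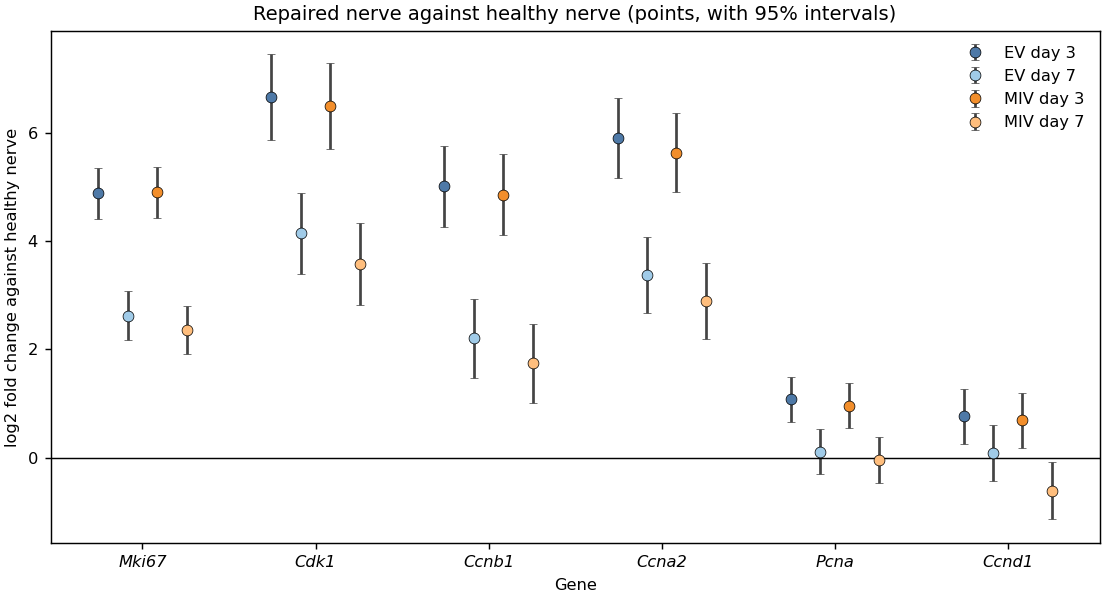
Points give the log2 fold change of each repaired group against healthy nerve for each gene, with 95% intervals from edgeR, and the horizontal line marks no change. Mki67, Cdk1, Ccnb1 and Ccna2 sit well above the line at both days, and Pcna and Ccnd1 sit near 1 at day 3 and close to or below 0 at day 7.

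The balance between these genes was followed within each library as reads per 100 Pcna reads, a ratio that library scaling does not touch and that was added after the values had been seen. It compares groups for a given gene and not the genes with each other. Mki67 gave 8.48, 9.21, 11.1, 12.4 and 13.96 reads per 100 Pcna reads in healthy nerve. At day 3 it gave 126, 151 and 188 in EV and 145, 170.3 and 198 in MIV. At day 7 it gave 51.2, 52.4 and 89.8 in EV and 49.5, 54.1 and 75.3 in MIV. The day 3 libraries therefore lay above both the healthy and the day 7 libraries. The rise of the ratio over healthy nerve at day 3 was 14.1-fold in EV and 15.7-fold in MIV, and the drop from day 3 to day 7 was 2.46-fold and 2.90-fold. Because the ratio was formed with the levels of both genes known, these values are a description and no test of them is drawn on here.

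Cdk1, Ccnb1 and Ccna2 had the same order relative to Pcna. Their ratios rose 52.9-, 16.7- and 30.6-fold over healthy nerve in EV at day 3, and 51.8-, 16.2- and 27.3-fold in MIV, without overlap. From day 3 to day 7 they dropped 2.92-, 3.56- and 2.92-fold in EV and 3.78-, 4.31- and 3.26-fold in MIV, also without overlap. For Ccnd1 the ratio was 103, 139.6, 146, 151 and 154 reads per 100 Pcna reads in healthy nerve, 87.2, 117 and 131 in EV day 3 and 84.1, 129.8 and 143 in MIV day 3. The Ccnd1 ranges overlapped those of healthy nerve in both series at both days.

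**Figure D3:**
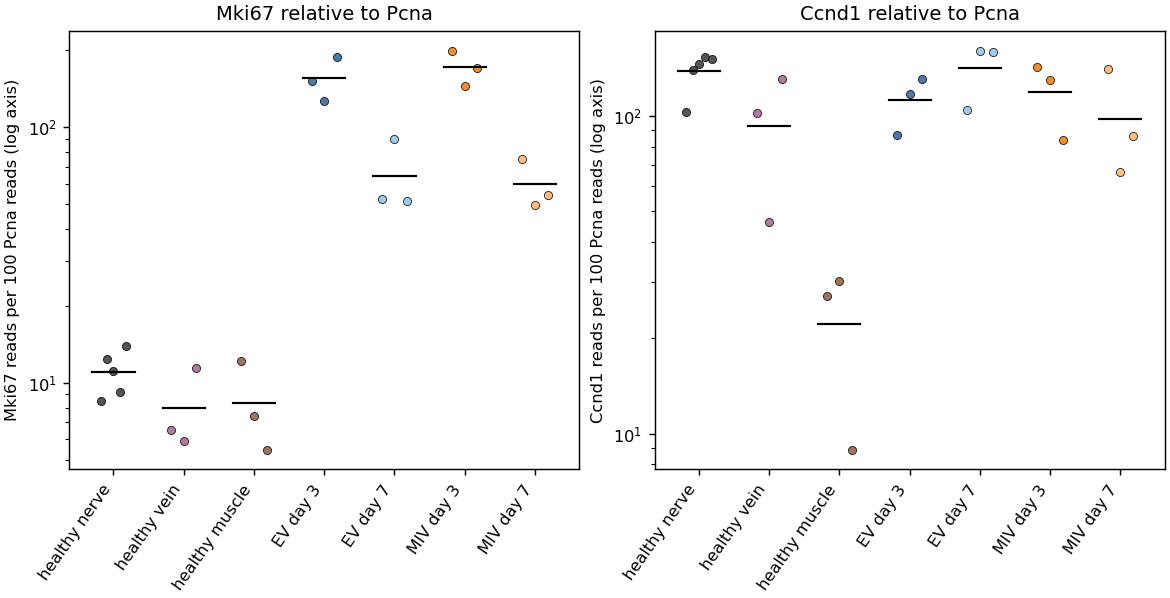
Points show reads of Mki67 (left) and Ccnd1 (right) per 100 Pcna reads in each library on a log axis, and bars show group means. The Mki67 ratio lies between 126 and 198 in the day 3 libraries and below 14 in healthy nerve, while the Ccnd1 ratio of the repaired libraries overlaps that of healthy nerve.

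The time course was then compared within each series, using only the 12 repaired libraries (15036 genes tested). From day 3 to day 7 all 6 genes fell in EV, where 10.2% of all genes were called lower, and all 6 fell in MIV, where 8.09% were. The median log2 fold change of the 6 was -2.38 in EV and -2.63 in MIV, against 0.01 and 0.06 over all genes tested. Ccnb1 fell by 2.80 ± 0.25 log2 units in EV, which is 6.95-fold and the most of the 6, and fell by 3.11 ± 0.25 in MIV, which is 8.66-fold (SE; edgeR adjusted p = 0.000402 and 0.000167). By p it ranked 10 of the 15036 genes in EV and 8 in MIV. Cdk1 fell 5.68-fold in EV and 7.46-fold in MIV, Ccna2 5.74-fold and 6.67-fold, and Mki67 4.74-fold and 5.77-fold (edgeR adjusted p from 0.000184 to 0.000402). The days did not overlap for any of these 4 genes in either series, which is a description without the share over all genes.

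Pcna fell 1.94-fold in EV and 2.001-fold in MIV (edgeR adjusted p = 0.0313 and 0.0314). Neither call was firm: it did not hold without 1 of EV day 3 replicates 1, 2 and 3 or EV day 7 replicates 2 and 3 (adjusted p up to 0.114), or without 1 of MIV day 3 replicates 2 and 3 or MIV day 7 replicates 1 and 3 (up to 0.124). Ccnd1 fell 1.58-fold in EV (edgeR adjusted p = 0.0411), a call that was lost without EV day 3 replicate 2 or 3, without any 1 EV day 7 library, or without MIV day 3 replicate 3 (adjusted p up to 0.146). In MIV Ccnd1 fell 2.45-fold, by 1.30 ± 0.20 log2 units (SE; edgeR adjusted p = 0.00279), and this call held without any 1 of the 12 libraries.

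**Figure D4:**
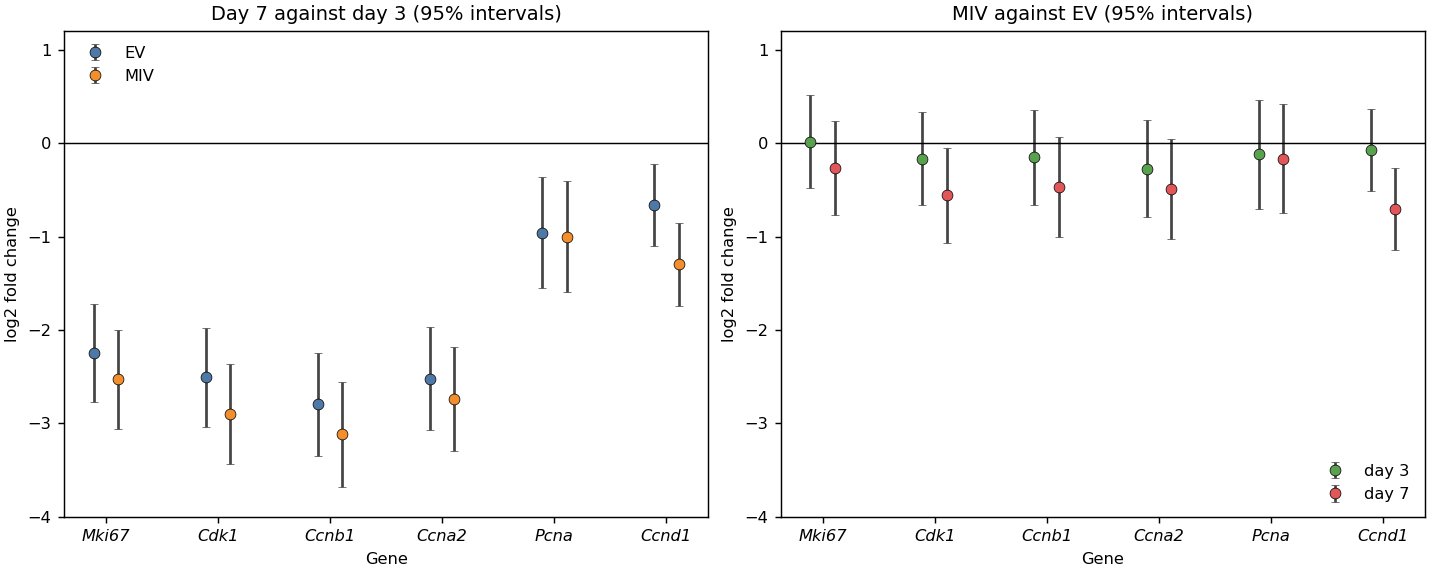
The left panel gives the log2 fold change from day 3 to day 7 in EV and MIV, and the right panel that of MIV against EV at each day, with 95% intervals from edgeR. On the left all points lie below 0, from -0.66 for Ccnd1 in EV to -3.11 for Ccnb1 in MIV, and on the right they lie between -0.70 and 0.02.

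MIV and EV nerves were compared to ask whether the level of the division genes differed between the 2 repaired series. None of the 6 passed at day 3 or at day 7, and neither did any other gene tested (0.00% called by edgeR at each day, with 558 genes higher and 217 lower at an unadjusted p under 0.05 at day 3, and 1476 and 1038 at day 7). With DESeq2 in place of edgeR, 251 genes were called at day 3, none of them among the 6, and 868 at day 7. Ccnd1 was the only one of the 6 among the latter. At day 3 the log2 differences of the 6 genes lay between -0.27 (Ccna2, 95% interval -0.79 to 0.25) and 0.02 (Mki67, -0.48 to 0.52). MIV day 3 replicate 1 was the lowest of its group for all 6 genes and MIV day 3 replicate 3 the highest for 5. Replicate 1 also had the highest share of muscle-enriched counts of its group, 21.7% against 18.3% and 18.5%, and the part of this in its lower values was not tested.

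At day 7 all 6 log2 differences were below 0, with a median of -0.48 against 0.01 over all genes. Ccnd1 had the largest, at -0.70 ± 0.20 (SE; 95% interval -1.15 to -0.26), which is 1.63-fold lower in MIV. Its EV values of 95.3 to 100.04 CPM did not overlap the MIV values of 48.2 to 74.6 CPM. At day 7 the residuals of same-numbered libraries of these 2 groups correlated at 0.18 to 0.22. Different-numbered libraries of these 2 groups correlated at -0.15 to -0.02, in part because residuals cancel out within a group. In other pairs of groups different-numbered libraries reached 0.28 (MIV day 3 replicate 1 with MIV day 7 replicate 3). No label says what a replicate number marks. EV was above MIV in 3 of 3 same-numbered pairs for Mki67, Cdk1, Ccnb1, Ccna2 and Ccnd1 and in 2 of 3 for Pcna. For Ccna2 and Ccnd1 any pairing gives 3 of 3, since their ranges did not overlap. The share of all genes with such an order was not computed. With the replicate block none of the 6 was called. For Ccnd1 the unadjusted p was 0.00503, the edgeR adjusted p was 0.138, and DESeq2 gave an adjusted p of 0.0304. Ccna2 differed by -0.49 (95% interval -1.03 to 0.05), Cdk1 by -0.56 (-1.07 to -0.05), Ccnb1 by -0.47 (-1.002 to 0.06), Mki67 by -0.27 (-0.77 to 0.24) and Pcna by -0.16 (-0.75 to 0.42), with edgeR adjusted p from 0.265 to 0.763. MIV day 7 replicate 3, in which muscle-enriched genes took 37.4% of the counts, was the lowest of its group for Mki67, Ccnb1, Ccna2 and Ccnd1. Replicate 2, with the lowest share, was the highest for Mki67, Ccnb1 and Pcna and the lowest for Cdk1. Replicate 1 was the highest for Cdk1, Ccna2 and Ccnd1 and the lowest for Pcna. The part of the muscle share in these values was not tested. With scaling from genes that are not muscle-enriched the Ccnd1 difference was -0.62 (edgeR adjusted p = 0.158).

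Over both days together, Ccnd1 differed by -0.39 ± 0.14 (SE) between MIV and EV and Ccna2 by -0.38 ± 0.17 (SE), and none of the 6 passed (edgeR adjusted p from 0.237 to 0.751, where 1.54% of all genes were called). The change of the MIV effect from day 3 to day 7 passed for none of the 6, and for no other gene tested (0.00% called by edgeR, 473 genes higher and 323 lower at an unadjusted p under 0.05, and 17 called by DESeq2, none of them among the 6). For Ccnd1 that change was -0.63 ± 0.28 log2 units (SE; edgeR adjusted p = 0.906).

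Repaired nerves were also set against healthy vein and healthy muscle, the kinds of tissue in a muscle-in-vein graft, and whether EV repairs held either tissue is not stated in the labels. Compared with healthy vein, all 6 genes were higher at day 3 in EV and in MIV, where 26.7% and 28.1% of all genes were called higher. Cdk1 was 240-fold and 214-fold up, from 2 to 13 counts per vein library, and Mki67 42.9-fold and 43.4-fold up. With so few counts the size for Cdk1 was loose: its log2 fold change of 7.91 in EV and 7.74 in MIV became 8.74 and 8.58 without healthy vein replicate 3, and 8.80 and 8.72 with voom. At day 7, 4 of 6 were higher in each series (15.0% and 25.5% of all genes). Pcna and Ccnd1 did not pass, although EV Ccnd1 was close, at 0.75 ± 0.28 log2 units (SE; edgeR adjusted p = 0.0510, and 0.00519 to 0.108 over the other settings). Compared with healthy muscle, all 6 genes were higher in MIV at day 3 and 5 of 6 at day 7 (33.5% and 34.7% of all genes). Scaling from genes that are not muscle-enriched turned the calls over all genes at day 3 from 5338 higher and 5263 lower to 4555 and 6155 (median from 0.07 to -0.17), and at day 7 from 5540 and 4999 to 4781 and 5795 (median from 0.17 to -0.04). The counts of the 6 genes stayed at 6 and 5 under it. Ccnd1 was 15.3-fold up at day 3 and 6.20-fold at day 7, and the exception was Pcna at day 7, at 0.43 log2 units (95% interval -0.05 to 0.90), which passed without healthy muscle replicate 3 (edgeR adjusted p = 0.0239). The comparisons with a given healthy tissue share its libraries.

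Among the healthy tissues themselves, muscle had 4 of the 6 genes at a lower level than nerve, where 35.8% of all genes were called lower. Scaling from genes that are not muscle-enriched turned the calls over all genes from 5024 higher and 5716 lower to 6238 higher and 4621 lower, and their median from -0.19 to 0.15. Ccnd1 differed most, 9.495-fold lower in muscle (edgeR adjusted p = 1.11e-08), and Mki67 was 1.90-fold lower (adjusted p = 0.00385), a call that was lost with scaling from genes that are not muscle-enriched (adjusted p = 0.0512). Ccnb1 and Ccna2 were also called lower in muscle, from 1 to 7 and from 2 to 3 counts per muscle library. Pcna, at -0.47 ± 0.21 log2 units (SE; edgeR adjusted p = 0.0531), was not called, but was called lower in 12 of 30 alternatives, 7 of which left out 1 library. The count of genes called ran from 3 to 5. The Ccna2 call was lost without healthy muscle replicate 3 (edgeR adjusted p = 0.0556). Against vein, muscle was lower for Ccnd1, 6.01-fold (adjusted p = 4.35e-07), and for Ccnb1 (edgeR adjusted p = 0.0230), where 33.4% of all genes were called lower. Here the same scaling turned 4912 higher and 5334 lower calls into 5964 and 4307, and the median from -0.16 to 0.13. The Ccnb1 call was lost without healthy muscle replicate 1 or 3 or healthy vein replicate 3 (adjusted p up to 0.105). Vein was lower than nerve for Ccnd1 alone (edgeR adjusted p = 0.0441, with 21.4% of all genes called lower), although the ranges overlapped. That call was lost without any 1 of 11 libraries, namely healthy nerve replicates 2 to 5, healthy vein replicates 1 and 2, EV day 3 replicate 3, the 3 EV day 7 replicates and MIV day 3 replicate 3. Healthy vein replicate 2, at 31.6 CPM, was the lowest vein for Ccnd1, and without it the edgeR adjusted p was 0.258. Without healthy vein replicate 3, the highest vein for 5 of the 6 genes, 4 genes were called lower in vein, Mki67, Cdk1, Ccna2 and Ccnd1.

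The genes whose levels ran most like those of the 6 were sought by the mean Pearson r of log2 CPM over the 12 repaired libraries, among 15030 other genes. The first was ENSRNOG00000013727, with a mean r of 0.963 and single values from 0.895 with Ccnd1 to 0.996 with Ccna2. Its group means were 1.65 CPM in healthy nerve, 50.8 CPM in EV and 45.3 CPM in MIV at day 3, and 10.05 and 6.16 CPM at day 7. The next was ENSRNOG00000012051, with a mean r of 0.963, at 2.05 CPM in healthy nerve, 37.4 and 33.4 CPM at day 3, and 8.58 and 6.08 CPM at day 7. These correlations span libraries of both days and describe the shared course only.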

How the data were processed

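RNA sequencing measured transcripts in 23 libraries of 7 groups, from 350 ng of RNA selected with poly-T beads in a kit that does not keep strand, per the labels' protocols. The authors deposited a table of raw counts per Ensembl gene. CASAVA and HISAT2 are named in the submitters' processing notes. Not given in the sources used here are the counting tool, genome build, annotation and handling of reads shared with near-identical copies. Libraries were grouped by title.

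The deposited counts were tested with edgeR 4.0.16 in R 4.3.3 (quasi-likelihood F-test, TMM scaling, filterByExpr at its defaults, a per-library minimum of 10 counts and 15 in total). All 23 libraries entered the comparisons with healthy tissue, leaving 15954 genes and a biological coefficient of variation of 31.5%. The 12 repaired libraries alone entered the others, leaving 15036 genes and 37.1%. Benjamini-Hochberg adjustment ran over all genes tested at a threshold of 0.05, in 19 comparisons. The code was tested on simulated data. CPM are counts over the TMM-scaled total of the tested genes. Ratios to Pcna are given as a description. Exact permutation tests were run on them in 40 comparisons, and none passed after Benjamini-Hochberg adjustment (smallest permutation adjusted p = 0.0893). In groups of this size the smallest possible unadjusted p was 0.0357 against healthy nerve and 0.1 between repaired groups. With these limits none of the 40 could have passed at 0.05 after adjustment, even without any overlap. No conclusion is therefore drawn from these tests. Dixon's test for values set apart was also run on the CPM and on the ratios in healthy nerve.

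The 6 genes and the lists were chosen with earlier results of these data known. The rule for named genes was the 6 genes plus the 2 identifiers most correlated with them. Lists of other cell cycle genes and of cell type markers were planned, but 0 identifiers matched a symbol in the reference table, so these lists were not analysed here. Alternatives were DESeq2 size factors, TMM from genes not enriched in muscle, no filter, DESeq2 1.42.0, limma 3.58.1 voom with quality weights, fits to other sets of libraries, a replicate block and leaving out each library. The block was checked by correlating the residuals of same-numbered libraries. Only EV day 7 and MIV day 7 had every correlation above 0.1, from 0.18 to 0.22. For the remaining pairs of repaired groups they ran from -0.15 to 0.24. No pair of libraries held identical counts.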

Additional observations from a re-analysis of the deposited data

Results flagged for a closer look

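In MIV, Ccnd1 lay on opposite sides of healthy nerve at the 2 days. In CPM after TMM scaling, all 3 MIV day 3 libraries lay above and all 3 MIV day 7 libraries below every healthy nerve. At day 7 the margin was thin, with MIV replicate 1 at 74.6 CPM and the lowest nerve at 74.8 CPM. These positions were not checked under other scalings. Day 7 minus day 3 was -1.30 log2 units (edgeR adjusted p = 0.00279 for MIV day 7 against MIV day 3). That p does not test either day against nerve. The day 7 call against nerve (edgeR adjusted p = 0.0464) was lost in 17 of 30 alternatives, and the day 3 call (0.0188) was lost without MIV day 3 replicate 2 (0.119) and with the replicate block (0.0526). In healthy nerve, Ccnb1 was highest in replicate 1, at 3.63 CPM, apart from the other 4 libraries. Ccna2 gave 4.14 reads per 100 Pcna reads in nerve replicate 5, the highest of the 5, and Ccnd1 gave 103 in nerve replicate 1, the lowest. These 3 values stood apart by Dixon's test among 11 measures of the 5 nerves, and chance alone sets apart about 1 group in 20. All 3 were barely over the cutoff, with a gap to the next value of 0.722, 0.726 and 0.721 of the range against 0.71. The 11 measures reuse the same counts and are not independent.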

How the results depend on the processing

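For Mki67, Cdk1, Ccnb1 and Ccna2, the 48 results against healthy tissue and between days kept their direction and their call in all 1352 values computed under the alternatives. The calls that did change concern Ccnd1, Pcna and the comparisons among healthy tissues, and the cause was not tested. For vein against nerve, 1 of the 6 genes was called, against 0 with TMM from genes not enriched in muscle, with no filter, with the replicate block and with only the 2 groups, 2 with DESeq2, 3 with voom, and 0 to 4 with 1 library left out. For muscle against vein the count was 2, against 1 with TMM from genes not enriched in muscle, 1 with only the 2 groups, and 1 to 3 with 1 library left out. For MIV against EV at day 7 it was 0, against 1 with DESeq2 (Ccnd1).

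Every sign that turned belonged to a difference that had not passed the test. With TMM from genes not enriched in muscle, the log2 difference of Pcna was 0.067 for MIV day 7 against nerve and 0.013 for the change of the MIV effect between days, and that of Cdk1 was 0.14 for muscle against nerve. With voom, Pcna was -0.18 for MIV day 7 against vein, and Mki67 and Ccna2 missed the threshold for muscle against nerve (limma adjusted p = 0.0643 and 0.0883). With 1 library left out, Pcna ran from -0.15 to 0.23 for EV day 7 against nerve, -0.076 to 0.30 against vein, -0.29 to 0.083 for MIV day 7 against nerve and -0.22 to 0.15 against vein. For MIV against EV at day 3, Mki67 ran from -0.17 to 0.14, Ccnb1 from -0.38 to 0.053, Pcna from -0.29 to 0.089 and Ccnd1 from -0.25 to 0.046. At day 7 Pcna ran from -0.38 to 0.088, and the change between days ran from -0.26 to 0.21 for Pcna and -0.43 to 0.046 for Ccna2. Ccnd1 ran from -0.25 to 0.35 for MIV day 7 against vein, Ccnb1 from -0.69 to 0.054 for vein against nerve, and Cdk1 from -1.42 to 0.22 for muscle against nerve and -0.18 to 1.87 for muscle against vein. Counts of 1 to 13 for Cdk1 in vein and muscle libraries limit what can be seen there.

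With the replicate block, the drop from day 3 to day 7 was called for 4 of the 6 genes in EV and 5 in MIV. Pcna missed the threshold in both (edgeR adjusted p = 0.0544 and 0.0549), as did Ccnd1 in EV (0.0599), Ccnd1 for MIV against nerve at day 3 (0.0526) and day 7 (0.156), and Ccna2 for muscle against nerve (0.0530). None of the 6 was called for MIV against EV with the block, including blocks on the day 7 libraries only, which were chosen after seeing the data.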
